A study of Mus musculus with 8 samples.

Results

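Tdrd7, Celf1, Rbm24, Caprin2 and Carhsp1 encode RNA-binding or RNA granule proteins of the lens, and open chromatin was examined at these 5 genes of the 21000 protein-coding mouse genes with a curated RefSeq transcript. The genes were chosen by name, by a rule that uses no measured value, at a time when earlier results of these data were known. Each locus was the RefSeq gene body (GRCm38, the assembly also called mm10) with 50 kb on each side, and every ATAC-seq peak that overlapped it by at least 1 bp was taken. At E14.5 the 5 loci held 84 of the 100003 peaks of epithelium and 268 of the 123743 of fibers, and at P0.5 they held 39 of 58592 and 82 of 62995. Merged over the lists, these were 290 regions of 185271.

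Lens fiber cells elongate, fill with crystallin and then lose their nucleus, so that messages made earlier must be kept and translated without further transcription. Proteins that bind messages therefore carry much of the control in a maturing fiber. Tdrd7 is a Tudor domain protein of RNA granules, and its loss causes cataract and glaucoma in humans and mice. Celf1 binds GU-rich sequences and acts on splicing, decay and translation, and its loss in the lens causes cataract. Rbm24 is an RNA recognition motif protein of splicing and message stability in muscle and in the developing eye. Caprin2 is an RNA granule protein expressed in lens fibers, and Carhsp1 is a cold shock domain protein that stabilizes messages.

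ATAC-seq uses the transposase Tn5, which cuts accessible DNA and adds sequencing adaptors to it. Lenses of CD1 mice were micro-dissected into epithelium and fibers in embryos (stage E14.5) and in newborns (stage P0.5), and no group carried an allele or a treatment. Each of the 4 groups had 2 libraries, 8 in all, and each library pooled several lenses. The files analysed hold 1 peak list per group, called on both libraries together, so no value has a replicate spread and no difference between groups was tested. A change in the share of open cells and a change in openness per cell cannot be told apart in such tissue.

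Peaks were ordered in each list by the authors' fold enrichment at the summit, and the rank is 1 more than the number of stronger peaks, in percent of the list, so that tied peaks share the best rank of their tie. Values of fold enrichment were whole numbers times 1 constant per list (100% of peaks, tolerance 0.02 of a fragment). The fragments over each summit were taken as that whole number less a pseudocount of 1. The background was constant in each list, between 1.16 fragments in P0.5 fibers and 2.37 in E14.5 fibers. The weakest listed peaks had 7 fragments in both epithelium lists, and 8 and 6 in those of fibers at E14.5 and P0.5. P0.5 fibers were the shallowest list, and 48.9% of their peaks had a q value under 0.001, against 80.5% to 87.9% in the other lists. Below, "interval" means the exact 95% Poisson interval of the fragments read as a rank, which covers counting error only. A comparison is called apart only where these intervals do not overlap, and that is not a test across libraries.

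The dissection was checked at the promoters of tissue markers, taking the strongest peak within 2 kb of a start site. Of 6 fiber markers 5 had a promoter peak in every list, and all 5 ranked higher in fibers than in epithelium at both stages, while the fiber nuclease gene Dnase2b had none in any list. Crybb1, a beta crystallin gene, ranked at 10.4% in epithelium and 0.494% in fibers at E14.5 and at 75.7% and 3.82% at P0.5. All 5 epithelium markers had a promoter peak in every list, and Foxe3, a lens epithelium regulator, ranked higher in epithelium than in fibers at both stages (4.26% and 7.48% at E14.5, 7.95% and 9.32% at P0.5). Epithelium markers were less clear than those of fibers. Ranked among genes with a promoter peak, 2 of 5 were higher in fibers at E14.5 and 0 of 5 at P0.5. By percent of the list, Pax6, an eye regulator, stood at 3.73% in epithelium and 0.479% in fibers at E14.5. Cdh1 (22.5% and 19.5%) and Pdgfra (6.84% and 4.26%) were also higher in fibers there, and Foxe3 and Npnt in epithelium. At P0.5, Pax6 (6.64% and 6.31%) and Pdgfra (10.8% and 10.3%) were higher in fibers on that scale, and Foxe3, Cdh1 and Npnt in epithelium. Of 12 markers of retina, pigment cells, cornea, vessels and blood, 2 had a promoter peak in every list and 4 (Tyr, Krt12, Krt5 and Ptprc) in none. The part of such cells in the results below was not tested.

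All 5 genes had a promoter peak in every list, as did 60.6% of protein-coding genes. The share of all protein-coding genes with a promoter peak was 70.3% in epithelium and 71.2% in fibers at E14.5, and 67.0% and 64.6% at P0.5. The summits lay within 134 bp of a curated start site in all 20 cases.

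By the strongest promoter peak of each gene, Rbm24 differed most between the tissues. Its gene lies on chr13:46418300-46431099 (plus strand) with 1 curated start site and no other gene with a curated transcript in its window. At E14.5 the promoter summit had 55 fragments in epithelium and 259 in fibers, for rank percents of 11.5 (interval 8.90 to 15.2) and 1.87 (1.26 to 2.60). At P0.5 it had 20 and 24 fragments, for 27.9 (17.2 to 52.3) and 5.11 (1.69 to 12.6). The promoter was thus apart between epithelium and fibers at each stage, and it ranked higher in fibers both times.

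The rank percent of Rbm24 in epithelium was 6.15 times that in fibers at E14.5, a ratio reached by 45 of 14426 genes with a promoter peak in both lists (0.312%), Pax6 among them. At P0.5 it was 5.45 times, which 339 of 12836 genes reached (2.64%). Ranked only among genes with a promoter peak, Rbm24 stood at 64.1% in epithelium and 17.3% in fibers at E14.5, a ratio of 3.71 reached by 0.596% of genes. On the same scale it stood at 78.6% and 24.8% at P0.5, a ratio of 3.17 reached by 4.94% of genes. It was therefore a weak promoter peak among those of epithelium and a strong one among those of fibers.

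The 250 bases before the Rbm24 start site, which the promoter peak covers in part or whole in each list, are shown because this promoter was apart between the tissues at both stages. They lie at chr13:46418050-46418299 (GRCm38, plus strand), hold 12 CpG dinucleotides at a GC content of 62.4%, and contain none of the 8 motifs searched, so no letter is capitalized.
Rbm24 promoter: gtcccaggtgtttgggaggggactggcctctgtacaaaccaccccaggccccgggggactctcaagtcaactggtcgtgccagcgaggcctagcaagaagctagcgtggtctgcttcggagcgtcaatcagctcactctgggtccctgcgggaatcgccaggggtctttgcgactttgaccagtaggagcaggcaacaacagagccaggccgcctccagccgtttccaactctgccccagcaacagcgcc

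Caprin2 had the highest rank of the 5 promoters in both E14.5 lists. Its gene lies on chr6:148842492-148896237 (minus strand). At E14.5 its promoter summit had 209 fragments in epithelium and 309 in fibers, at rank percents of 1.22 (interval 0.678 to 1.92) and 1.01 (0.594 to 1.56). At P0.5 it had 76 and 31, at 2.11 (0.828 to 4.88) and 2.61 (0.621 to 6.94), and all 4 intervals overlapped. The Caprin2 promoter was thus among the strongest peaks of every list, without a separation by tissue or stage.

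Tdrd7 and Carhsp1 had strong promoter peaks as well. At its main start site, Tdrd7 had 157 fragments in epithelium and 262 in fibers at E14.5 (rank percents 2.76 and 1.80) and 63 and 27 at P0.5 (3.97 and 3.82). Carhsp1 (chr16:8658587-8672153, minus strand) had 131 fragments in epithelium and 226 in fibers at E14.5 (3.92 and 2.66) and 64 and 34 at P0.5 (3.76 and 1.87). The intervals overlapped between epithelium and fibers at each stage for both genes. By rank percent of the list, Carhsp1 was the only one of the 5 that ranked higher at P0.5 than at E14.5 in both tissues, with overlapping intervals.

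Celf1 (chr2:90940397-91019497, plus strand) had 121 promoter fragments in epithelium and 227 in fibers at E14.5, at rank percents of 4.52 (interval 3.32 to 5.96) and 2.62 (1.89 to 3.46). At P0.5 it had 50 and 26, at 7.24 (3.61 to 12.8) and 4.22 (1.22 to 11.4). The intervals of the tissues overlapped narrowly at E14.5 and widely at P0.5.

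**Figure D1:**
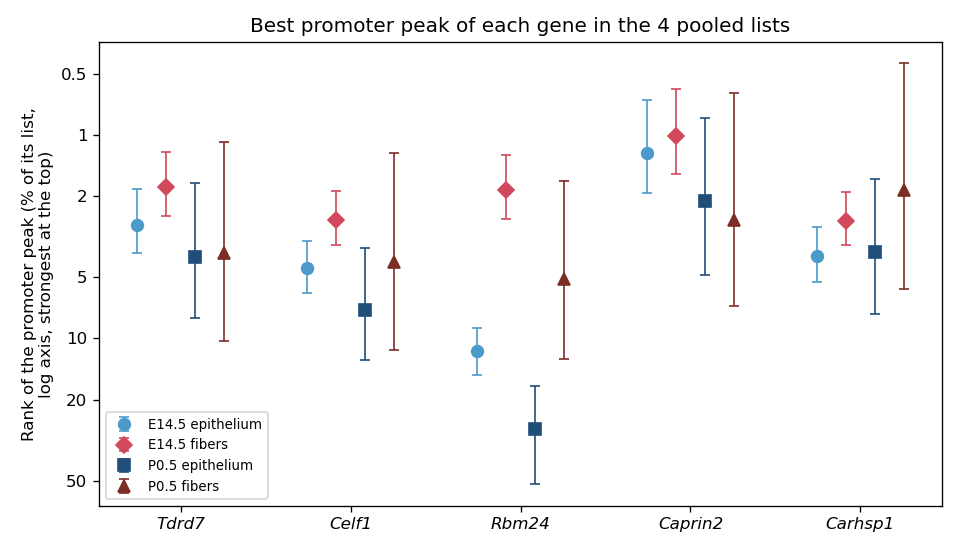
The strongest promoter peak of each gene is plotted as its rank in percent of the list (log axis, strongest at the top), with 1 point for each of the 4 pooled lists and bars for the exact 95% Poisson interval of the summit fragments read as ranks. Rbm24 alone shows a gap between the tissues at both stages, from 11.5% to 1.87% at E14.5 and from 27.9% to 5.11% at P0.5 (epithelium to fibers), and Caprin2 stays between 1.01% and 2.61%.

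By rank percent of the list, 5 of 5 promoters ranked higher in E14.5 fibers than in epithelium of that stage, where 72.8% of all genes did so. Among genes with a promoter peak the count was 4 of 5 with Caprin2 the exception (9.16% in epithelium and 9.52% in fibers), where 54.2% of genes ranked higher. At P0.5 the counts were 4 of 5 against 57.5% of genes and 3 of 5 against 51.5%, with Caprin2 lower in fibers on both scales and Tdrd7 on the second (17.3% and 18.5%). From E14.5 to P0.5, 1 of 5 promoters (Carhsp1) ranked higher in epithelium and 1 of 5 (Carhsp1) in fibers, against 18.6% and 15.7% of all genes. Among genes with a promoter peak these counts were 3 of 5 in epithelium (Tdrd7, Celf1 and Carhsp1) and 2 of 5 in fibers (Celf1 and Carhsp1), against 43.8% and 46.6% of genes.

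Tdrd7 (chr4:45965335-46034765, plus strand) has 3 curated start sites, and those at 45972297 and 45972831 share the promoter peak described above. The remaining start site, at 45965335, belongs to the transcript NM_001290475.1 and lies upstream in a region of its own, chr4:45964828-45966019. At E14.5 this upstream region had 15 fragments in epithelium and 149 in fibers, at rank percents of 43.5 (interval 26.4 to 87.9) and 5.18 (4.26 to 6.15). At P0.5 it had 14 in each, at 42.9 (23.6 to 96.5) and 14.0 (5.69 to 69.2).

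The upstream Tdrd7 start was thus apart between the tissues at E14.5 and not at P0.5. The ratio of its rank percents, epithelium to fibers, was 8.41 at E14.5, which 19 of the 19295 regions called in all 4 lists near genes reached (0.0985%). At P0.5 it was 3.07, reached by 8.98% of these regions. The upstream start base itself was covered by a peak in the E14.5 lists, at 46.8% in epithelium and 5.18% in fibers, and by none at P0.5, where the nearest peak of fibers ended at 45965328. At the main start site the corresponding ranks were 2.76% and 1.80% at E14.5.

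The upstream and main promoters of Tdrd7 also differ in sequence. The start at 45972297 is called main because it lies nearest to the promoter summit in every list. The RefSeq promoter windows, 250 bases before to 50 after each start, have a GC content of 48.3% upstream and 63.0% at the main start, with CpG observed over expected of 0.234 and 1.11. A lower CpG ratio was found in 24.3% of 20488 promoters for the upstream window and in 97.5% for the main window. The window of the start at 45972831, under the same peak as the main start, has a GC content of 70.3%. Its CpG ratio is 0.863, with a lower ratio in 78.5% of promoters, and it holds neither a Maf nor a CTCF match. The 250 bases before the upstream and main starts are shown because these promoters of 1 gene ranked so differently (GRCm38, plus strand). In the main promoter, capitals mark a Maf motif (TGCTGA, in 18.1% of all promoters) and a match to the CTCF consensus (in 10.2%). The 250 bases before the upstream start hold no match to the 8 motifs, but its full window, like that of the main start, holds a CTCF match.
Tdrd7 upstream promoter, chr4:45965085-45965334: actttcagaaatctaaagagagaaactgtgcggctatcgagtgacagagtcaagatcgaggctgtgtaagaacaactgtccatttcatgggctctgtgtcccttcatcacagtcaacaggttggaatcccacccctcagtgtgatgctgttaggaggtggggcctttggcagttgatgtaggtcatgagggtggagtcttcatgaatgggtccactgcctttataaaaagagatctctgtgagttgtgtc
Tdrd7 main promoter, chr4:45972047-45972296: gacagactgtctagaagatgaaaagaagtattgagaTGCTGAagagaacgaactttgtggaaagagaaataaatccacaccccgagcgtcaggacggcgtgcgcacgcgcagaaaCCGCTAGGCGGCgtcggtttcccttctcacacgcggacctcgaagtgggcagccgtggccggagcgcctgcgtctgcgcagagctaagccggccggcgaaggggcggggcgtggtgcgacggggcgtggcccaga

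Downstream of the upstream start, an intron region of Tdrd7 (chr4:45966565-45968720) was called in all 4 lists as well. It had 39 fragments in epithelium and 107 in fibers at E14.5 (16.0% and 7.16%) and 17 and 7 at P0.5 (33.9% and 69.2%). With 7 fragments in P0.5 fibers, 1 more than the weakest listed peak had, no difference between the tissues is read from the P0.5 values.

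The loci carried more peaks in E14.5 fibers than in the other lists. With 58592 peaks kept in each list the counts over the 5 loci were 57 in epithelium and 109 in fibers at E14.5, and 39 and 77 at P0.5. The counts by gene that follow are from the full lists. Tdrd7 had 19 peaks in epithelium and 95 in fibers at E14.5, and 8 and 19 at P0.5. Celf1 had 28 and 76 at E14.5 and 15 and 26 at P0.5, and Rbm24 had 2 and 23, then 2 and 3. Caprin2 had 10 and 37 at E14.5 and 4 and 5 at P0.5, and Carhsp1 had 25 and 37, then 10 and 29. The median protein-coding gene had 8 peaks in epithelium and 10 in fibers at E14.5, and 5 in each at P0.5, in windows of the same construction. Windows differ in length, from 112.8 kb at Rbm24 to 179.1 kb at Celf1, so shares and densities are given below.

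Of the 290 merged regions, 195 were called only in E14.5 fibers, or 67.2% (Wilson 95% interval 61.6 to 72.4%). Among the 165615 regions within 50 kb of any protein-coding gene the share was 30.1%. It was 73.3% of 101 regions at Tdrd7, 62.2% of 82 at Celf1, 95.7% of 23 at Rbm24, 76.3% of 38 at Caprin2 and 41.3% of 46 at Carhsp1. The share was thus above the background at 4 loci, while the Carhsp1 interval of 28.3 to 55.7% included it. Regions of 1 locus lie side by side, so these intervals are too narrow.

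E14.5 fibers had the longest list, and with 58592 peaks kept in each list the share fell to 65 of 139 regions (46.8%), against a background of 12.8%. These 65 were 17 at Tdrd7, 26 at Celf1, 8 at Rbm24, 7 at Caprin2 and 7 at Carhsp1. With a q value under 0.001 the share was 69.5%, against 30.2%. Most of the 195 regions were weak to moderate peaks, with a median rank percent of 58.1 and a best of 11.5, and 80.0% had a q value under 0.001, compared with 65.5% of such regions near all genes.

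The other combinations are shares of the same total, and most were lower at these loci than near genes in general. All 4 lists called 24 regions (8.28%, background 11.7%), both E14.5 lists alone 20 (6.90%, background 11.5%) and P0.5 fibers alone 15 (5.17%, background 12.4%). E14.5 epithelium alone called 6 (2.07%, background 12.3%), and both fiber lists alone called 10 (3.45%, background 2.57%). No region was called only in P0.5 epithelium or only in both epithelium lists, 0 of 290 in each case with an upper Wilson bound of 1.31%, where the backgrounds were 4.19% and 1.92%. With regions called only in E14.5 fibers left out, the order changed for some combinations. Of the 95 regions then left, all 4 lists called 25.3% (16.7% near all genes), both E14.5 lists alone 21.1% (16.4%) and both fiber lists alone 10.5% (3.68%), while E14.5 epithelium alone called 6.32% (17.6%) and P0.5 fibers alone 15.8% (17.7%). By count, all 4 lists called 11 regions at Celf1, 5 at Carhsp1, 4 at Tdrd7, 3 at Caprin2 and 1 at Rbm24, where the median gene had 2.

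**Figure D2:**
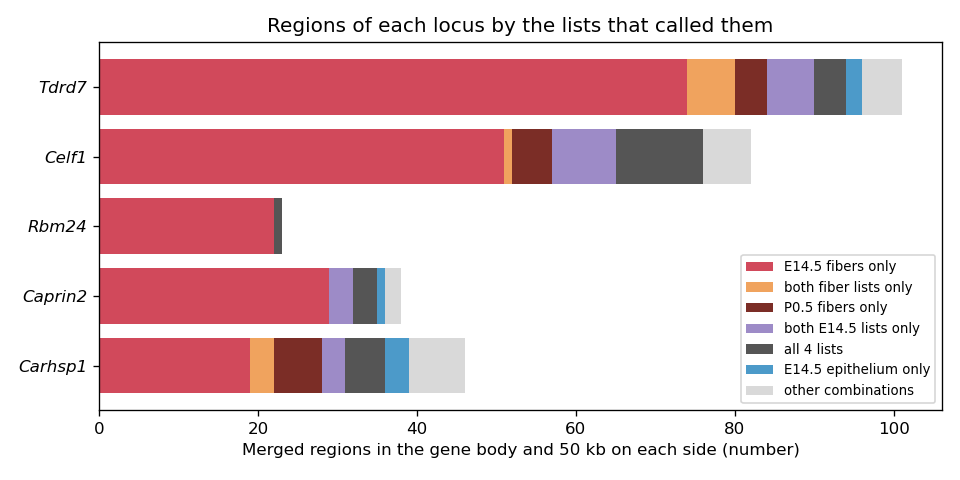
Horizontal bars give the number of merged regions of each locus (gene body and 50 kb on each side), split by the lists that called them. Regions called only in E14.5 fibers make up 74 of 101 at Tdrd7, 51 of 82 at Celf1, 22 of 23 at Rbm24, 29 of 38 at Caprin2 and 19 of 46 at Carhsp1.

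Per 100 kb of window, regions called only in E14.5 fibers numbered 43.7 at Tdrd7, 28.5 at Celf1, 19.5 at Rbm24, 18.9 at Caprin2 and 16.7 at Carhsp1, and the median over protein-coding genes was 2.51. By this density Tdrd7 stood at position 1 of the 21000 genes, Celf1 at 26, Rbm24 at 181, Caprin2 at 212 and Carhsp1 at 347. All 5 genes were thus above 98.3% of genes by this density, which counts regions and not their width. By the share of the window that all E14.5 fiber peaks covered, Rbm24 was above 80.3% of genes and Caprin2 above 84.4%. Tdrd7, Carhsp1 and Celf1 were above 99.2%, 99.1% and 99.0% by that share. The order of the 5 by density depended on list length. With 58592 peaks in each list, Celf1 stood at position 2, Tdrd7 at 23, Rbm24 at 86, Carhsp1 at 153 and Caprin2 at 406, the last with 4.55 such regions per 100 kb where the median gene had 0.506. Neighbouring genes share much of their windows, so these positions are a description of the loci and not of 5 independent genes among 21000.

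**Figure D3:**
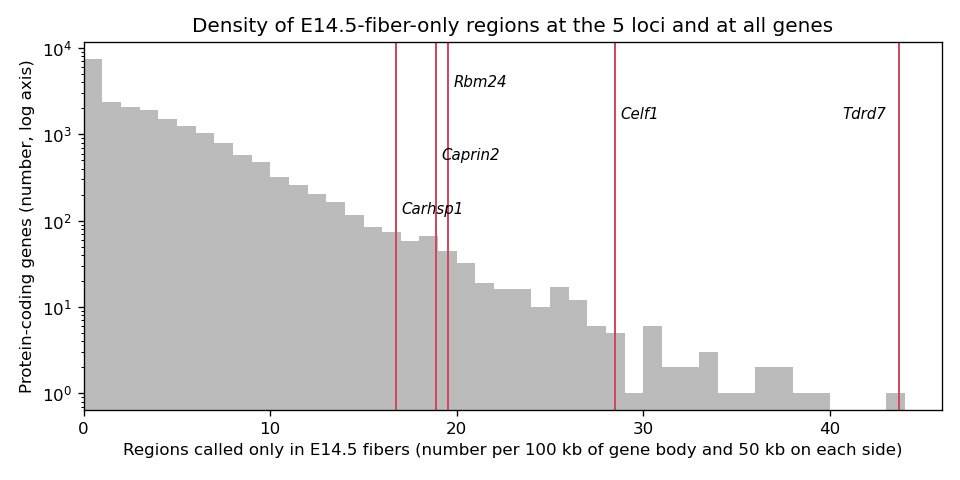
The histogram counts protein-coding genes (log axis) by the number of regions called only in E14.5 fibers per 100 kb of gene body and 50 kb on each side, and red lines mark the 5 genes. The lines lie between 16.7 for Carhsp1 and 43.7 for Tdrd7, to the right of the bulk of genes, whose median is 2.51.

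These regions lay mostly in the genes themselves at Tdrd7 and Celf1. Of the 74 at Tdrd7, 51 overlapped the gene body, 6 lay upstream and 17 downstream, where Tmod1, the gene of the actin capping protein tropomodulin, begins. Peaks of E14.5 fibers covered 45.7% of the Tdrd7 gene body, against 2.03% to 4.42% in the other lists. The median gene body was covered to 3.54% in E14.5 fibers. The widest peak of the window, 5067 bp in E14.5 fibers, lay over the Tmod1 promoter, which ranked at 19.5% in epithelium and 6.71% in fibers at E14.5 and at 18.0% and 14.0% at P0.5.

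At Rbm24, every peak of the other 3 lists fell inside the single promoter region chr13:46417794-46419537, and the other 22 regions were E14.5 fiber regions alone. Of these, 3 lay upstream, 8 overlapped the gene body and 11 lay downstream, the farthest with its summit 58118 bp from the start site. No other gene with a curated transcript overlaps this window, so none of the 22 lay at such a neighbour. Genes beyond the window were not examined. The strongest of them lay in an intron, chr13:46426705-46427169, with 30 fragments at a rank of 23.5%, and a region just past the gene end, chr13:46431539-46432281, had 27 fragments at 26.1%.

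**Figure D4:**
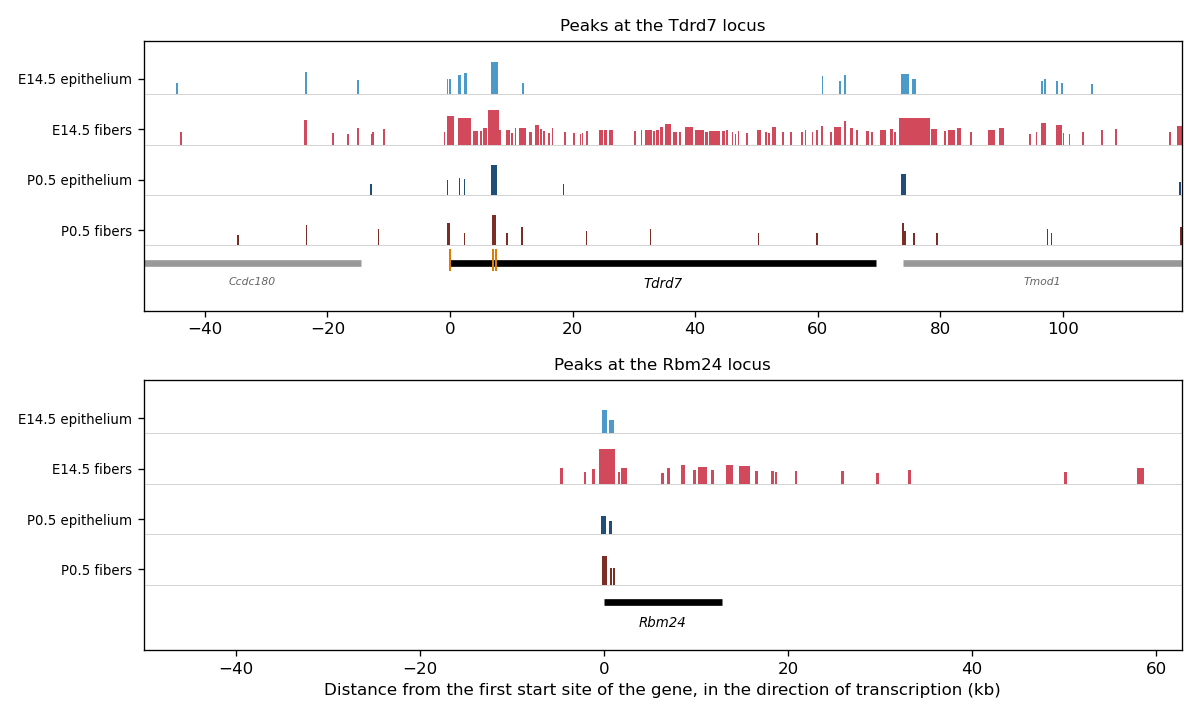
Peaks of the 4 lists are drawn to scale along the Tdrd7 and Rbm24 windows against the distance from the upstream start site in kb, with taller bars for higher ranks (log scale), black bars for the gene, grey bars for neighbours and orange ticks for the Tdrd7 start sites. E14.5 fiber peaks run through the Tdrd7 gene body and past the end of Rbm24, where the other lists show few or none.

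Celf1 showed a strong element inside the gene. The intron region chr2:90986985-90987876, 47.1 kb downstream of the start site, had 106 fragments in epithelium and 287 in fibers at E14.5, at 5.53% (interval 4.09 to 7.17%) and 1.34% (0.850 to 1.97%). At P0.5 it had 18 and 11, at 31.6% (18.8 to 66.3%) and 21.4% (8.49 to 100%), and the intervals were apart between the tissues at E14.5 and overlapped at P0.5. In E14.5 fibers it ranked above the Celf1 promoter (2.62%), with intervals that overlapped. The ratio of rank percents at E14.5, 4.11, was reached by 0.912% of the 19295 regions called in all 4 lists, and that at P0.5, 1.47, by 38.4%.

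Of the 35 regions of the Celf1 gene body called only in E14.5 fibers, 12 lay in the 47.1 kb before this element and 23 in the 32.0 kb after it. E14.5 fiber peaks covered 33.0% of the Celf1 gene body, against 1.76% to 4.85% in the other lists. The strongest peak that overlapped the Celf1 window in E14.5 fibers was not at Celf1 but, with its summit just past the end of the window, at the promoter of Slc39a13, a zinc transporter gene, which overlaps that of Gm39874 (chr2:91068321-91071445). That region ranked at 1.31% in epithelium and 0.427% in fibers at E14.5, and at 2.95% and 2.61% at P0.5.

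Caprin2 had a comparable intron element, chr6:148858512-148858993, 37372 bp downstream of its start site. At E14.5 it had 86 fragments in epithelium (7.17%) and 280 in fibers (1.46%). At P0.5 it had 14 in fibers (14.0%), and no peak was called there in epithelium. In E14.5 fibers this element stood close to the Caprin2 promoter, at 1.01%. Peaks of E14.5 fibers covered 9.35% of the gene body, the least of the 5 genes and above 71.8% of all genes. The strongest region called only in E14.5 fibers at any of the 5 loci had its summit at -5207 bp from the Caprin2 start, that is upstream (chr6:148901153-148901880), with 62 fragments at 11.5%.

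The summit sequences of the Celf1 and Caprin2 intron elements are shown because they were the strongest peaks of E14.5 fibers at the 5 loci outside promoters. They are 200 bases around the summit in E14.5 fibers (GRCm38, plus strand, so that Caprin2 is read against its direction of transcription), and neither overlaps an exon. Capitals mark matches to the 8 motifs. Both hold 2 Maf motifs, TGCTGA and its reverse complement TCAGCA. The Celf1 element also holds a Sox match (CATTGT, the reverse complement of ACAATG) between them, and the Caprin2 element a Tead match (GGAATG).
Celf1 intron element, chr2:90987388-90987587: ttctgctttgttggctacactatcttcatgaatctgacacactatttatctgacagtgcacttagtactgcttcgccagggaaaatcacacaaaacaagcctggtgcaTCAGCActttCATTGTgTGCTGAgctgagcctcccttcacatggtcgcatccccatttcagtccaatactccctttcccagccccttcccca
Caprin2 intron element, chr6:148858765-148858964: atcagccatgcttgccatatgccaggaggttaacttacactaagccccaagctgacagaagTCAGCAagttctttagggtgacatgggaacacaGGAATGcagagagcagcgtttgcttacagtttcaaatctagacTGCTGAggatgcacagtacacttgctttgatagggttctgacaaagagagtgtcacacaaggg

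Counted from 1 at the left end, the Maf matches start at positions 109 and 126 in the Celf1 element, and the Sox match at 119. In the Caprin2 element the Maf matches start at 62 and 138 and the Tead match at 95. Of the 123686 E14.5 fiber peaks on assembled chromosomes, 24.7% held at least 1 Maf motif in the same window and 3.82% at least 2. The pairs were seen after the sequences were read, and a match is a description of letters.

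Motifs over all peaks of the 5 loci were compared with the level of their lists. At E14.5 a Maf motif was found in 70 of 268 fiber peaks (26.1%, interval 21.2 to 31.7%, all peaks 24.7%) and in 26 of 84 epithelium peaks (31.0%, 22.1 to 41.5%, all peaks 21.0%). At P0.5 it was found in 21 of 82 fiber peaks (25.6%, all peaks 18.9%) and in 8 of 39 epithelium peaks (20.5%, all peaks 18.8%). In regions called only in E14.5 fibers the shares were 25.6% at the 5 loci and 26.5% near all genes. The Pitx motif TAATCC was found in 28 of 268 E14.5 fiber peaks (10.4%, interval 7.33 to 14.7%), above the 5.85% of all peaks. In contrast, the CTCF match was found in 10 of them (3.73%, 2.04 to 6.73%), below the 9.74% of all peaks, and the Ets motif CGGAAG in 7 (2.61%, 1.27 to 5.29%), below 6.59%. In regions called only in E14.5 fibers, which make up most of these peaks, CTCF stood at 2.56% (1.10 to 5.86%) at the 5 loci and 4.98% near all genes, inside the interval. In the same regions Ets stood at 1.03% (0.282 to 3.66%) against 3.75%, and Pitx at 11.8% (7.99 to 17.1%) against 6.18%. Fiber peaks of P0.5 leaned the other way for all 3, with Pitx in 2.44% (interval 0.671 to 8.46%, all peaks 3.39%), CTCF in 12.2% (6.76 to 21.0%, all peaks 8.37%) and Ets in 9.76% (5.03 to 18.1%, all peaks 8.79%), each interval holding the level of the list. Epithelium peaks leaned as those of E14.5 fibers did for Pitx, found in 10.7% at E14.5 (interval 5.74 to 19.1%, all peaks 5.80%) and 12.8% at P0.5 (5.60 to 26.7%, all peaks 5.40%). The CTCF match stood in epithelium at 7.14% (3.31 to 14.7%, all peaks 11.9%) and 7.69% (2.65 to 20.3%, all peaks 11.8%), with intervals that held the level of the list. Ets stood in epithelium at 8.33% (4.10 to 16.2%, all peaks 7.76%) and 15.4% (7.25 to 29.7%, all peaks 9.79%), on the other side of the level from E14.5 fibers. In E14.5 fibers the Sox motif ACAATG stood at 11.9% against 11.4%, Tead GGAATG at 11.6% against 12.5%, AP-1 TGANTCA at 5.97% against 6.77% and the heat shock factor motif GAANNTTC at 3.36% against 3.94%. Peaks of 1 locus lie side by side, so these intervals are too narrow for independent loci.

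Carhsp1 was the locus with the widest peak. Its promoter peak was 7379 bp wide in E14.5 fibers (chr16:8665309-8672687), against 848 to 1063 bp in the other lists. Accordingly, E14.5 fiber peaks covered 73.5% of the gene body, more than in 98.5% of genes. The gene body was covered to 24.3% in epithelium at E14.5, and to 7.74% in epithelium and 21.2% in fibers at P0.5, and at least 87.8% of genes were covered less in each of these lists. Carhsp1 was thus more open along its body than most genes in every list. Of its 19 regions called only in E14.5 fibers, 3 lay in the gene body and 13 upstream, toward Usp7, a deubiquitinase gene.

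**Figure D5:**
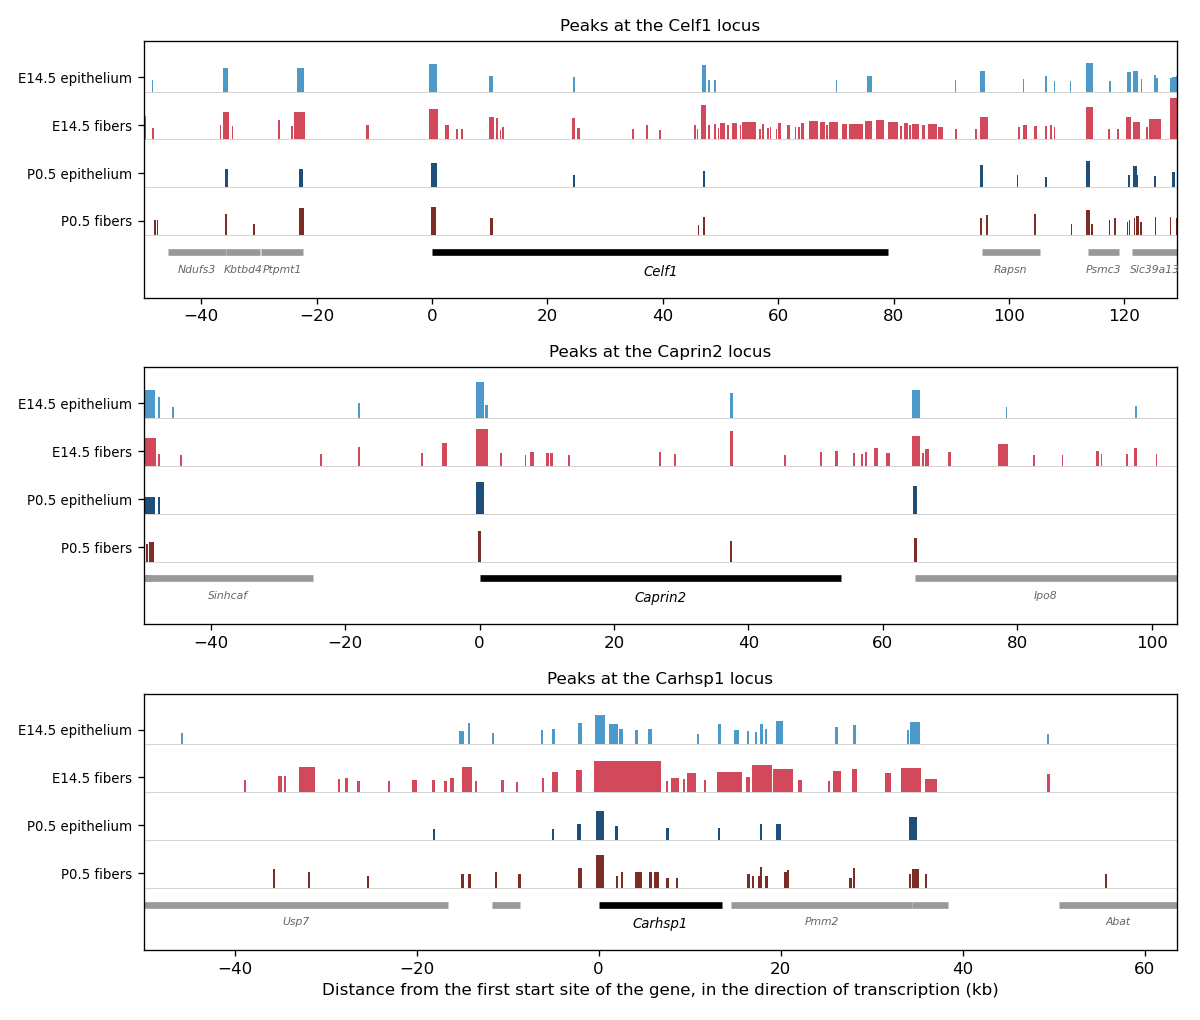
Peaks of the 4 lists are drawn to scale along the Celf1, Caprin2 and Carhsp1 windows against the distance from the start site in kb, with taller bars for higher ranks (log scale), black bars for the gene and grey bars for neighbours. The intron elements stand 47.1 kb into Celf1 and 37372 bp into Caprin2, and the wide E14.5 fiber peak of 7379 bp covers the start of Carhsp1.

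Related genes gave a frame for these promoters. Of 14 relatives by family, 12 had a promoter peak in every list, where 60.6% of all genes did, and the germline genes Tdrd1 and Tdrd9 were the exceptions. Tdrd1 lacked a promoter peak in both P0.5 lists, and Tdrd9 had one in epithelium at E14.5 only. Caprin1, the paralog of Caprin2, ranked at 7.60% in epithelium and 2.32% in fibers at E14.5 and at 17.2% and 5.11% at P0.5. Celf3 ranked at 50.8% and 12.9% at E14.5 and at 58.5% and 34.7% at P0.5. Among 13 relatives with a peak in both E14.5 lists, 8 ranked higher in fibers among genes with a promoter peak, and 7 of 12 did so at P0.5, where 54.2% and 51.5% of all genes did.

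Of 32 regulators of RNA granules, stability or translation, 31 had a promoter peak in every list (60.6% of all genes), the exception being Zfp36l1, a decay factor of AU-rich messages, in P0.5 fibers. On the same scale, 21 of 32 ranked higher in fibers at E14.5 (54.2% of all genes) and 22 of 31 at P0.5 (51.5%). Edc4, a decapping cofactor, ranked at 21.7% in epithelium and 10.8% in fibers at E14.5 and at 66.3% and 26.4% at P0.5. Of 10 genes known as lens targets of the 5 proteins or dependent on them, 8 had a promoter peak in every list, against the same 60.6%. Dnase2b had none in any list, and Hspb1, a small heat shock protein gene, had none in P0.5 fibers and ranked between 50.8% and 75.7% in the other lists. Higher ranks in fibers were found for 5 of 9 targets at E14.5 and 2 of 8 at P0.5, beside the same 54.2% and 51.5%. Epha2, a receptor tyrosine kinase gene of cataract, was at 13.8% and 9.15% at E14.5 and at 26.3% and 34.7% at P0.5.

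Across 12726 other genes with a promoter peak in every list, the most similar set of 4 rank percents was sought by the summed absolute difference. For Rbm24 the nearest genes were Ccdc84 and Insm2, with summed differences of 7.14 and 7.55 percentage points. For Caprin2 they were Herpud2 and Adh5 (0.381 and 0.495), for Carhsp1 Marcks and Wasf3 (0.609 and 0.998), for Celf1 Acot7 and Tra2a (1.10 and 1.31), and for Tdrd7 Wdr27 and 1600012H06Rik, which tied with the same ranks (0.844 each). The likeness rests on 4 lists, and the summed difference grows with the rank percents themselves, so it is not compared between the 5 genes.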

How the data were processed

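ATAC-seq libraries of lens epithelium and fibers at E14.5 and P0.5 (2 per group, 8 in all) were pooled by group. The authors trimmed reads with Trim Galore 0.4.1, mapped them to mm10 with Bowtie2 2.3.3.1, removed mitochondrial and duplicate reads with SAMtools 1.2 and Picard 2.1.1, and used MACS2 2.1 with a q value threshold of 0.05. The deposited lists give the authors' fold enrichment (a ratio of summit fragments to background, both with a pseudocount), −log10 p values, −log10 q values, a score that was not used, and the summit position. The authors' −log10 values were used for the q value alternative and for ordering only. Depth per library was not analysed here, and 0 columns stayed unassigned.

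Scripts ran in python 3.11.15 with numpy 2.4.6, pandas 2.3.3, scipy 1.17.1 for intervals and pysam 0.24.0 for sequence. Lists were combined with bedtools 2.31.1 (distance 10 bp), and figures used matplotlib 3.10.9. Promoters were 2 kb around the start sites of 45756 curated RefSeq transcripts of GRCm38, and promoter windows for composition and motifs came from RefSeq (GRCm38). Motifs were searched on both strands within 200 bp around summits. Tied peaks share a rank. Genes of the other lists were named for a missing promoter peak or among the 5 of their list with the largest E14.5 difference between tissues.

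The members and lists were chosen with earlier results of these data known. The steps were tested on simulated data, where 100% of 4000 sites were merged correctly and 100% of 1600 promoter ranks recovered. Alternatives covered the q value, equal list lengths, windows, merge distances, promoter widths, transcripts and rank scales. Sequences of RefSeq transcripts beyond genome and promoters were not used here.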

Additional observations from a re-analysis of the deposited data

Results flagged for a closer look

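By rank percent of the full list, the Caprin2 promoter peak differed in opposite directions between the tissues at the 2 stages. Its rank percent was lower, that is stronger, in E14.5 fibers than in epithelium of the same stage (1.01 and 1.22, a difference of -0.21 points) and higher in fibers at P0.5 (2.61 and 2.11, a difference of 0.494 points). The difference between the stages was not tested, since each group gave 1 pooled list, and the counting intervals of the tissues overlapped at both stages. With equal list lengths, among regions of all 4 lists and among genes with a promoter peak, it ranked lower in fibers at both stages, so on those scales the directions were the same.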

How the results depend on the processing

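The 163 alternative values included counts, of which 71 stayed within 1.5 times the main count and 22 did not. All 5 genes had a promoter peak in every list under each alternative run. Counts at the loci followed the window and list chosen. With the gene body alone, peaks at the 5 loci fell to 28 and 136 in epithelium and fibers of E14.5 and to 14 and 25 at P0.5. With 20 kb on each side they were 50 in E14.5 epithelium and 24 and 48 in epithelium and fibers of P0.5, and with 100 kb they were 60 in P0.5 epithelium. A q value under 0.001 left 51 peaks in P0.5 fibers, and equal list lengths left 109 in E14.5 fibers. Merged regions numbered 138 with the gene body alone (110 in 1 list, 20 in 2 or 3, 8 in all 4, and 108 only in E14.5 fibers). They numbered 139 with equal list lengths (93 in 1 list, 22 in 2 or 3, and 65 only in E14.5 fibers), and 20 kb left 32 in 2 or 3 lists and 15 in all 4. The share called only in E14.5 fibers lay between 46.8% and 78.3% under all of these. The share over regions near all genes was 30.1% for the full lists, 30.2% with the q value and 12.8% with equal list lengths. It was not computed for the other windows and merge distances, so the 78.3% of the gene body alone has no such share beside it.

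At P0.5 a q value under 0.001 left 2 of 5 genes higher in fibers, and the share of all genes fell to 28.8% from 57.5%. That setting keeps 30793 fiber peaks against 50804 of epithelium, a change of list length that shifts the fiber rank percents of all genes. The difference in rank percent, epithelium minus fibers, reversed for Tdrd7 at P0.5 to -3.24 with that q value, -0.14 with equal list lengths, -0.357 among regions of all 4 lists and -1.14 among genes with a promoter peak. It reversed for Celf1 at P0.5 to -0.296 with that q value, and for Caprin2 at E14.5 to -0.0512, -0.149 and -0.358 with equal list lengths and on the latter 2 scales. The cause of the reversals on scales other than the q value was not tested. Rbm24 and Carhsp1 kept their direction under all alternatives run, at both stages. Ranking by p value gives the order of fold enrichment by construction, since each fold has 1 p value in a list, and bears on no result. No paired analysis was possible because the lists pool both libraries of a group, and leaving out a replicate was not run for the same reason. Few fragments limit the P0.5 values, where the promoter peaks rest on 24 to 34 fragments in fibers and that of Rbm24 on 20 in epithelium.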
